A study of Micropterus salmoides with 6 samples.

Results

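Mucins and the genes that goblet cells use to make and release mucus were examined in the intestine of largemouth bass (Micropterus salmoides) after acute heat. The set was taken from the gene table by name. It holds genes described as mucin-2, mucin-5 or mucin-13, genes described as IgGFc-binding proteins, numbered muc symbols and agr2, with at least 100 counts summed over the 6 libraries. Of 38342 entries in the table, 61 matched by name and 16 reached that count. A further 23 matches had totals of 1 to 99 and 22 had none. The lowest total inside the minimum was 162 (LOC119912276, mucin-2-like) and the highest outside it was 55 (LOC119896159, mucin-5AC-like). The 16 genes are 6 described as mucin-2-like, 6 as mucin-5AC-like, 2 as IgGFc-binding protein-like, muc3a and agr2.

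The fish came from a farm and were acclimated at 26 °C. A total of 120 fish were divided at random between 26 °C (control) and 34 °C (heat), with 3 parallels at each temperature, and intestine was sampled after 9 h. Each group has 3 libraries, and each library pools intestine, in equal parts, from 3 fish that shared a parallel, so the spread between libraries is that between pools and not between single fish. The labels give no strain, sex, age or gut segment. Library totals in the gene table ran from 8.24 M counts (heat replicate 1) to 28.8 M (control replicate 1).

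Goblet cells are secretory cells of the gut epithelium that package gel-forming mucins into granules. Such mucins are very long proteins that are disulfide-linked into multimers in the endoplasmic reticulum and Golgi and densely coated with O-linked sugars, and they swell into mucus on release. Membrane mucins instead stay anchored on the cell surface and form part of its glycocalyx. In mammals MUC2 is the main gel-forming mucin of the intestine, and MUC5AC is a gel-forming mucin found in the stomach and airway. The names used for bass genes are automatic descriptions of similarity, and no function in bass was tested.

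Several of these genes stand in clusters, at the positions that the deposited tables give on NCBI scaffolds. LOC119893780 (NW_024044570.1, 16365476 to 16380824, plus strand) and LOC119893781 (16380745 to 16421558) overlap by 80 bases on the same strand, and LOC119893786 (16442823 to 16473602) lies farther along. Between them stand 3 more mucin-2-like matches (LOC119893782, LOC119893783 and LOC119893784), all with 0 counts in every library. LOC119898530 lies near the start of a separate scaffold (NW_024040252.1, 1238 to 19533, minus strand). The membrane mucin gene muc3a (NW_024041150.1, 10320637 to 10336430) starts 7331 bases after the end of the mucin-5AC-like LOC119911879 (10275531 to 10313305) on the same strand. Near-identical mucin repeats can share reads, and the sources used here do not give the strand setting of the counting, so the separate values of neighbouring or overlapping copies are uncertain.

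No gene of the 16 passed the test between temperatures, which was edgeR's quasi-likelihood test with the p-value adjusted by Benjamini-Hochberg over all tested genes and a threshold of 0.05. That test called 0.984% of 20326 tested genes, 0.590% as higher and 0.394% as lower at 34 °C. At an unadjusted p under 0.05 there were 3 members of 16, all lower at 34 °C, beside 16.6% of all tested genes (6.86% higher and 9.78% lower), and the unadjusted counts given for the related lists stand against that same share. DESeq2 called 0 members higher and 2 lower, and it called 6.12% of all genes, 2.89% higher and 3.23% lower. The DESeq2 counts given for the related lists stand against these shares. The median log2 fold change (34 °C minus 26 °C) was -0.58 over the 16 genes and -0.12 over all tested genes, with 12 members below 0 and 4 above. Of all 20326 tested genes 11775 were below 0 and 8551 above. The members' median was -0.23 without control replicate 1 and -0.88 without control replicate 2. The 16 did not move as 1 block. The abundant mucin-2-like genes, agr2 and one IgGFc-binding gene followed a library pattern that did not match the temperature groups. The 6 mucin-5AC-like genes all had fold changes below 0, with adjusted p above the threshold.

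Levels per transcript length are given as the deposited TPM. LOC119898530 and LOC119893780 had the highest means over the 6 libraries, 804 and 675 TPM, followed by agr2 at 229 TPM, LOC119911879 at 119.6 TPM and muc3a at 101 TPM. LOC119893781 stood at 46.6 TPM, LOC119893231 at 16.1 TPM and LOC119908172 at 9.50 TPM. The other 8 members were between 0.310 and 4.25 TPM. The 2 leading mucin-2-like genes thus had several times the level of any other mucin in the set. Together the 16 genes took 1.26% of the counts in control replicate 1, 0.347% and 0.334% in control replicates 2 and 3, and 0.392%, 0.658% and 0.602% in heat replicates 1, 2 and 3. LOC119898530 and LOC119893780 supplied 81.9% to 91.2% of these counts in each library.

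**Figure D1:**
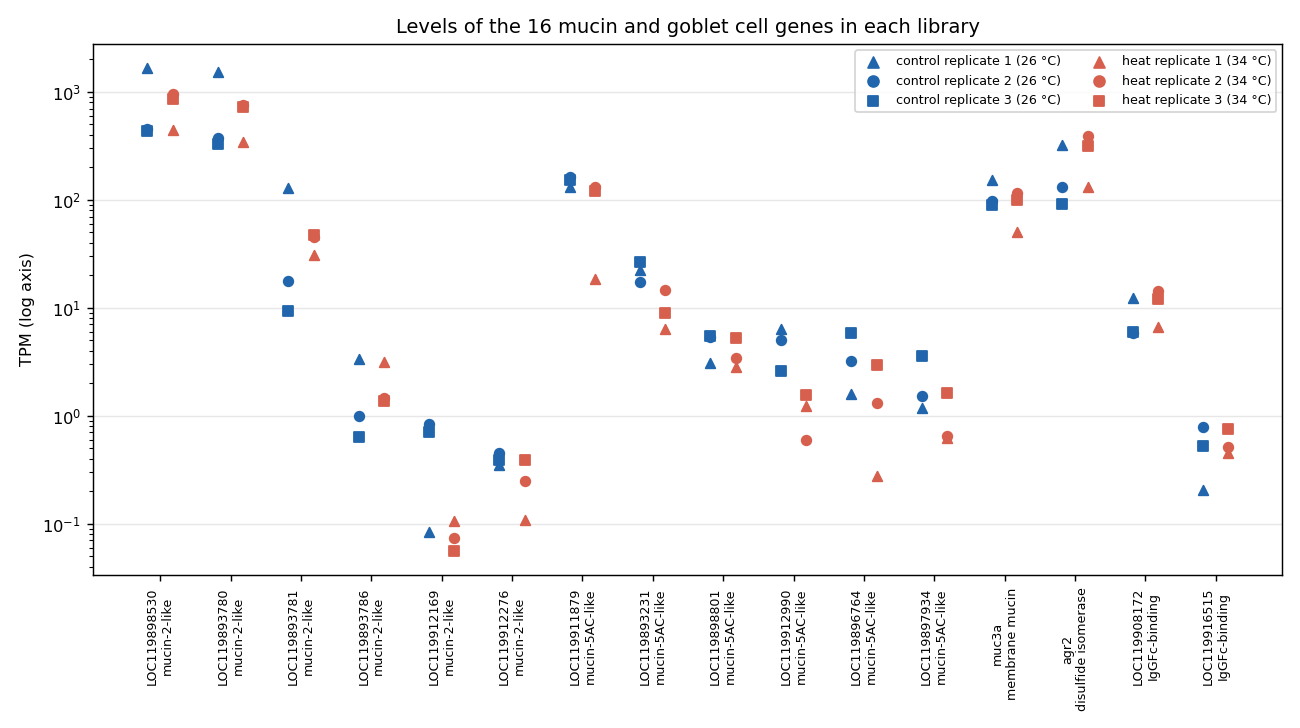
TPM (log axis) of each of the 16 genes in the 3 control libraries (blue) and the 3 heat libraries (red), with marker shape giving the replicate. LOC119898530 and LOC119893780 have the highest means, 804 and 675 TPM, and control replicate 1 lies above every other library for both.

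The mucin-2-like gene LOC119898530 stood at 7514, 1399.5 and 1584 CPM (counts per 1000000, with library sizes scaled by TMM) in control replicates 1, 2 and 3, and heat replicates 1, 2 and 3 had 2138, 3072 and 2703 CPM. Control replicate 1 was the highest library and the other controls were the lowest, so the groups overlapped. Means were 3499 ± 3478 CPM at 26 °C and 2638 ± 470.0 CPM at 34 °C (SD, n = 3), and the log2 change was -0.41 (SE 0.70; edgeR adjusted p = 0.813). For LOC119893780 the 26 °C pools gave 6751, 1144 and 1184 CPM and the 34 °C pools 1636, 2382 and 2221 CPM (log2 change -0.54; SE 0.74; edgeR adjusted p = 0.757). Both genes ranked the 6 libraries in the same order: control replicate 1, heat replicates 2, 3 and 1, then control replicates 3 and 2. Whether both genes share reads was not tested, so their values may not be independent of each other. The ratio of the first gene to the second was 1.11, 1.22 and 1.34 at 26 °C and 1.31, 1.29 and 1.22 at 34 °C, a difference of 0.06 log2 units (exact two-sided permutation test, p = 0.70, n = 3 per group, smallest possible p 0.10).

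LOC119893781, the overlapping neighbour, had the widest spread among the controls. Control replicates 1, 2 and 3 gave 490.2, 46.4 and 28.2 CPM, whereas the 3 heat libraries gave 124, 122 and 124 CPM. Control replicate 1 was 13.1-fold above the mean of the other controls, and the heat libraries had a mean of 123 ± 1.54 CPM (SD, n = 3). On TPM the heat libraries were less even, at 30.7, 45.4 and 47.3 in replicates 1, 2 and 3. The log2 change was -0.61 in all libraries (SE 0.94; edgeR adjusted p = 0.789) and 1.74 without control replicate 1 (SE 0.24; edgeR adjusted p = 0.0145). LOC119893786, at the far end of the cluster, had a different pair of high libraries, 25.6 CPM in control replicate 1 and 25.3 CPM in heat replicate 1, against 3.95 to 7.91 CPM in the other 4 libraries. LOC119912276 was rare, at 2.06 to 2.27 CPM at 26 °C and 0.779 to 1.73 CPM at 34 °C, without overlap (log2 change -0.79; SE 0.48; edgeR adjusted p = 0.468).

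LOC119912169 (NW_024041150.1, 32705654 to 32728973, minus strand) ran against the abundant mucin-2-like genes. Its counts were 18, 83 and 64 in control replicates 1, 2 and 3 and 9, 8 and 6 in the heat libraries, or 0.772, 5.35 and 5.27 CPM against 1.17, 0.476 and 0.385 CPM. Here control replicate 1 lay with the heat libraries. The log2 change was -2.55 (SE 0.83; edgeR adjusted p = 0.190), and -3.05 without control replicate 1 (SE 0.54; edgeR adjusted p = 0.0247). The assembled noncoding transcript MSTRG.20791.1 covers the whole gene on the same strand, with 9.91 to 19.8 CPM at 26 °C and 10.8 to 12.3 CPM at 34 °C, and the source of reads common to both cannot be told apart.

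Of the genes that act with secreted mucins, agr2 and LOC119908172 showed the library pattern of LOC119898530 in CPM. Control replicate 1 was the highest library in 11 of the 16 members (68.8%), against 33.7% of tested genes. Control replicate 1 and heat replicates 2 and 3 were the 3 highest in 4 members (25.0%), against 7.29% of tested genes. Both counts include LOC119898530 and LOC119893780, from which the pattern was read, so these shares are not independent of it. The gene agr2 (NW_024040817.1, 32254638 to 32258528) encodes an endoplasmic reticulum protein of the disulfide isomerase family that mouse goblet cells need to make Muc2. Its level was 163, 46.2 and 37.9 CPM in control replicates 1, 2 and 3, against 71.1, 140.1 and 112 CPM in heat replicates 1, 2 and 3 (log2 change 0.38; SE 0.57; edgeR adjusted p = 0.782). LOC119908172 (NW_024040817.1, 14993397 to 15004129) is described as IgGFc-binding protein-like, and in mammals this protein is a component of mucus that goblet cells secrete. The 26 °C pools had 35.5, 11.5 and 13.7 CPM of it and the 34 °C pools 20.4, 28.8 and 23.8 CPM (log2 change 0.27; SE 0.44; edgeR adjusted p = 0.807). In both genes every heat library lay above control replicates 2 and 3 and below control replicate 1 in CPM. On TPM agr2 had 319, 131 and 91.9 at 26 °C and 130.2, 388 and 316 at 34 °C, so heat replicate 2 lay above control replicate 1 and heat replicate 1 level with control replicate 2. For LOC119908172 too, heat replicate 2 (14.2 TPM) lay above control replicate 1 (12.4 TPM). The rarer LOC119916515, also IgGFc-binding protein-like, did not show the CPM order of agr2 and LOC119908172, with 1.76, 4.51 and 3.54 CPM at 26 °C and 3.09 to 4.36 CPM at 34 °C.

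No identifier in the table starts with spdef, but LOC119885400 is described as the SAM pointed domain-containing Ets transcription factor, the protein that drives goblet cell maturation in mice. This gene, named after its values were seen, gave 41.2, 14.8 and 10.8 CPM in the control pools and 23.8, 32.4 and 26.0 CPM in the heat pools (log2 change 0.30; SE 0.48; edgeR adjusted p = 0.803). In CPM it had the same arrangement as agr2, with control replicate 1 highest and the other controls lowest. On TPM its heat replicate 2 (26.5) lay above control replicate 1 (23.8). No identifier starts with tff, zg16, clca or fcgbp either, and no description names a trefoil factor, zymogen granule membrane protein 16 or a calcium-activated chloride channel regulator.

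Without control replicate 1, edgeR called 4 of the 16 members, 3 higher and 1 lower, and it called 8.71% of all tested genes, 4.61% higher and 4.11% lower. LOC119893781, agr2 (log2 change 1.37; SE 0.29; edgeR adjusted p = 0.0380) and LOC119908172 (log2 change 0.97; SE 0.23; edgeR adjusted p = 0.0473) were higher, and LOC119912169 was lower. LOC119885400 was higher as well (log2 change 1.11; edgeR adjusted p = 0.0364). LOC119898530 had a log2 change of 0.83 and LOC119893780 one of 0.85 (SE 0.24 for each), with edgeR adjusted p of 0.0741 and 0.0711. The median over all tested genes was 0.01 in that fit. It was singled out after control replicate 1 was seen to differ, and none of these calls was made with any other library left out. All heat libraries lay above control replicates 2 and 3 for 6 of the 16 members (37.5%, against 24.2% of tested genes) and below them for 7 (43.8%, against 25.3%). The 6 again include LOC119898530 and LOC119893780.

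**Figure D2:**
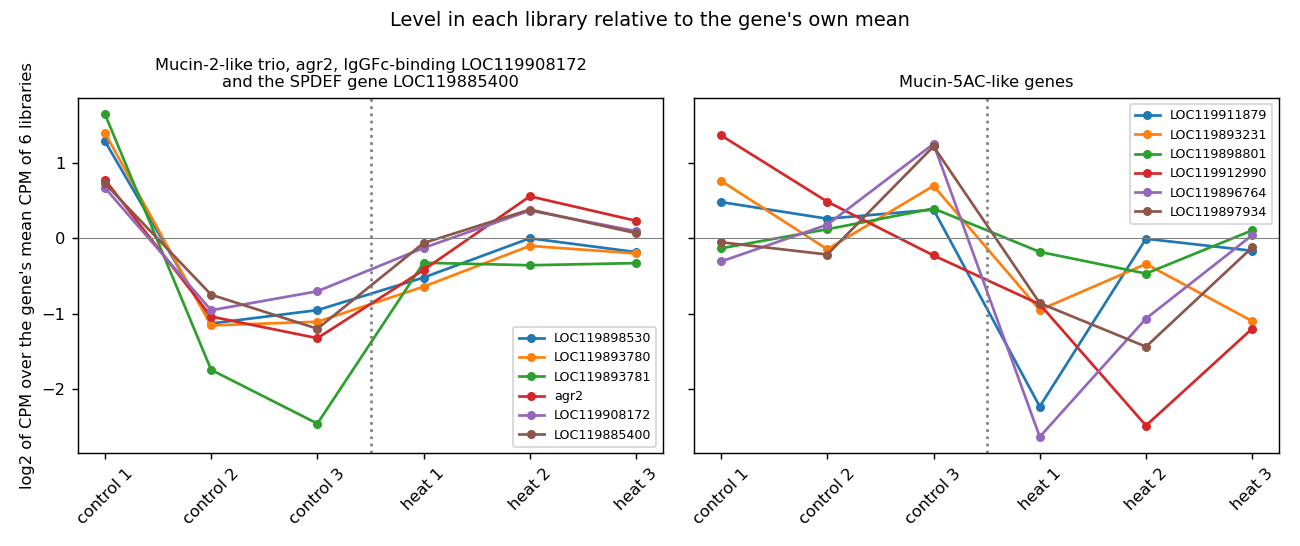
Log2 of CPM in each library over the gene's own mean CPM of 6 libraries, for LOC119898530, LOC119893780, LOC119893781, agr2, LOC119908172 and the SPDEF-described LOC119885400 (left) and the 6 mucin-5AC-like genes (right). On the left control replicate 1 is highest and control replicates 2 and 3 are lowest, and on the right the heat libraries lie mostly below the controls.

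Control replicate 1 also stood apart outside these genes. Its log2 CPM over all tested features correlated with the other controls at 0.875 and 0.853, while those correlated with each other at 0.932. The summed level of 9 enterocyte markers was 34529.6 CPM in control replicate 1, 8129 and 12668 CPM in control replicates 2 and 3 and 8780.3 to 10295 CPM in the heat group. The summed level of 6 epithelial markers (epcam and claudins) was 1413, 499 and 326 CPM at 26 °C and 509.99 to 625 CPM at 34 °C. Of the 6 epithelial markers 5 had counts in every library, and cldn7a was at 0 in 5 libraries. Of the 9 enterocyte markers 7 had counts in every library, and the others were alpi.1 (at 0 in heat replicate 1) and cdhr5a (at 0 in control replicates 2 and 3). Smooth muscle markers, 10 genes of the gut wall, summed to 13053, 5995 and 12110 CPM at 26 °C and 4679 to 5370.1 CPM at 34 °C. Of the 9 that were tested 2 passed as lower, against 0.394% of all tested genes. Fibroblast markers, 4 genes, summed to 5305, 2356 and 3279 CPM at 26 °C and 1204 to 2568 CPM at 34 °C. The sums of 2 T cell markers (17.4 to 45.2 CPM against 12.5 to 15.8 CPM) and of 2 myeloid markers (26.5 to 35.2 CPM against 17.7 to 23.9 CPM) were lower at 34 °C without overlap. Of these 8 fibroblast, T cell and myeloid genes 0 passed the test. Among all tested genes 14.4% were lower without overlap. Marker levels of B cells, endothelium, enteroendocrine cells, pancreatic acinar cells and red blood cells overlapped between the groups. In pooled tissue fewer cells of a type and less RNA per cell cannot be told apart, and the part of these makeup differences in the mucin values was not tested.

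Summed over the 6 mucin-2-like members, the level was 14784, 2602 and 2807 CPM at 26 °C and 3926, 5585 and 5058 CPM at 34 °C, a difference of 0.01 log2 units (exact two-sided permutation test, p = 1, n = 3 per group). On TPM heat replicate 1 lay between control replicates 2 and 3, at 823 against 845 and 778 TPM, so its place relative to those controls depended on the scale. Divided by the enterocyte marker sum of the same library, the mucin-2-like level was 0.428, 0.320 and 0.222 at 26 °C and 0.447, 0.542 and 0.548 at 34 °C. These groups did not overlap (0.71 log2 units higher at 34 °C, higher in 3 of 3 heat libraries; exact two-sided permutation test, p = 0.10, the smallest possible). The same quotient against the epithelial markers was 10.5, 5.22 and 8.62 at 26 °C and 6.28, 10.02 and 9.92 at 34 °C, with overlap (exact two-sided permutation test, p = 0.70). Most of the enterocyte sum came from the apolipoprotein gene apoa1b and the sucrase-isomaltase gene si. The share of apoa1b was 42.6% to 54.2% at 26 °C and 60.3% to 64.3% at 34 °C. That of si was 24.0% to 31.0% at 26 °C and 13.7% to 16.4% at 34 °C. The makeup of this sum thus differed between the groups, and the first quotient also carries any change in those genes. In CPM, which do not correct for length, agr2 was 1.11%, 1.78% and 1.35% of the summed mucin-2-like level at 26 °C and 1.81%, 2.51% and 2.21% at 34 °C, again without overlap (exact two-sided permutation test, p = 0.10). On TPM, which does, agr2 had 319, 131 and 91.9 at 26 °C, against mucin-2-like sums of 3311, 845 and 778. At 34 °C agr2 had 130.2, 388 and 316 TPM, against sums of 823, 1770 and 1639 TPM. The TPM quotient was not tested. These quotients were chosen after the data were seen.

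**Figure D3:**
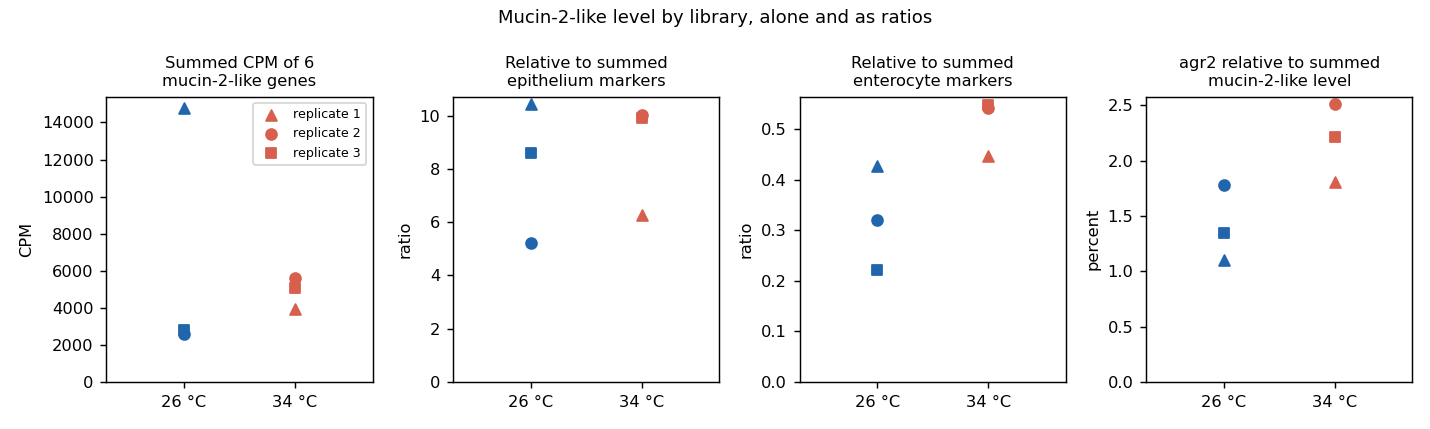
Summed CPM of the 6 mucin-2-like genes in each library, the same sum relative to summed epithelial and enterocyte markers, and agr2 CPM (not corrected for length) as a percentage of that sum, with marker shape giving the replicate (triangle 1, circle 2, square 3). The sum reaches 14784 CPM in control replicate 1, while relative to enterocyte markers the heat libraries (0.447 to 0.548) lie above the controls (0.222 to 0.428).

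All 6 mucin-5AC-like members had log2 fold changes below 0, from -2.10 to -0.30 with a median of -1.21, and all 6 stayed below 0 without control replicate 1 (median -1.22). With all libraries 11775 of 20326 tested genes were below 0. None of the 6 mucin-5AC-like genes passed in edgeR with all libraries. The most abundant after LOC119911879 was LOC119893231 (NW_024044570.1, 22131979 to 22137940, plus strand), with 66.7, 35.5 and 63.7 CPM in the control pools and 20.3, 31.0 and 18.3 CPM in the heat pools. The groups did not overlap, and the 34 °C mean lay 2.38-fold below (log2 change -1.25; SE 0.34; edgeR adjusted p = 0.124; DESeq2 adjusted p = 0.0309). LOC119893233, on the opposite strand, covers the whole gene but had only 33 counts in all libraries. LOC119912990 (NW_024041150.1, 37580487 to 37586060) had 302, 109 and 52 counts at 26 °C and 21, 15 and 34 at 34 °C, or 12.96, 7.03 and 4.28 CPM against 2.73, 0.892 and 2.18 CPM. Its groups did not overlap either, and the 34 °C mean lay 4.18-fold below (log2 change -2.10; SE 0.57; edgeR adjusted p = 0.129; DESeq2 adjusted p = 0.0169).

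LOC119911879 was set apart by 1 heat library. Control replicates 1, 2 and 3 gave 309.9, 266 and 289 CPM, while heat replicates 1, 2 and 3 gave 47.0, 221 and 198 CPM. Heat replicate 1 was 4.45-fold below the mean of the other heat libraries, and the log2 change of -0.89 (SE 0.53; edgeR adjusted p = 0.448) was -0.44 without it. The noncoding transcript MSTRG.19961.63, which overlaps 11175 bases of the gene on the same strand, had 12.5 CPM in heat replicate 1 against 60.2 and 82.0 CPM in the other heat libraries and 84.4 to 90.1 CPM in the controls. A second transcript of that locus, MSTRG.19961.57, overlaps 12859 bases of the gene and had a smaller gap, 35.7 CPM in heat replicate 1 against 53.7 and 48.4 CPM in the other heat libraries (1.43-fold) and 65.0 to 82.2 CPM in the controls. LOC119896764 was also low in heat replicate 1, with 4 counts there against 26 and 52 in the other heat libraries and 57 to 94 in the controls. It overlaps LOC119896763 on the same strand by 7342 bases, and that gene too was low in heat replicate 1 (0.779 CPM against 3.21 and 3.98 CPM) and lower still in control replicate 1 (0.257 CPM). LOC119897934 overlapped between groups, at 2.64 to 7.16 against 1.13 to 2.82 CPM, and so did LOC119898801, at 11.4 to 16.5 against 9.04 to 13.5 CPM. Heat replicate 1 had the smallest library, and the part of depth or of that pool in its low values was not tested.

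Across the 16 genes the CPM ranges of the groups did not overlap for 4, all lower at 34 °C (LOC119911879, LOC119893231, LOC119912990 and LOC119912276). That is 25.0% of the members. On TPM LOC119911879 and LOC119912276 did overlap, since control replicate 1 (131 and 0.352 TPM) lay below 1 heat library of each (132 and 0.386 TPM). Among all tested genes 25.8% did not overlap in either direction, 11.5% as higher and 14.4% as lower.

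The membrane mucin muc3a, which in mammals is anchored on enterocytes, had 249.7, 111 and 118 CPM in the control pools and 88.3, 135 and 114 CPM in the heat pools. The groups overlapped (log2 change -0.51; SE 0.38; edgeR adjusted p = 0.553), and without control replicate 1 the log2 change was -0.02. Other genes described as mucins fall outside the name rule. The gene described as mucin-17 was at 215 ± 64.6 CPM at 26 °C and 149 ± 45.2 CPM at 34 °C (SD, n = 3). LOC119887711, described as mucin-12-like, was at 288 ± 163 and 256 ± 28.4 CPM, with its lowest library in control replicate 1 at 99.1 CPM against 379 and 384 CPM in the other controls. The mucin-like membrane protein gene parm1 was at 121 ± 80.6 and 58.8 ± 16.6 CPM. Of 6 tested relatives matched by description, edgeR called 0, with 0 at an unadjusted p under 0.05 and 0 called by DESeq2. These relatives are not all mucins. They include the SPDEF-described LOC119885400, whose log2 change of 0.30 was the highest of the list.

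**Figure D4:**
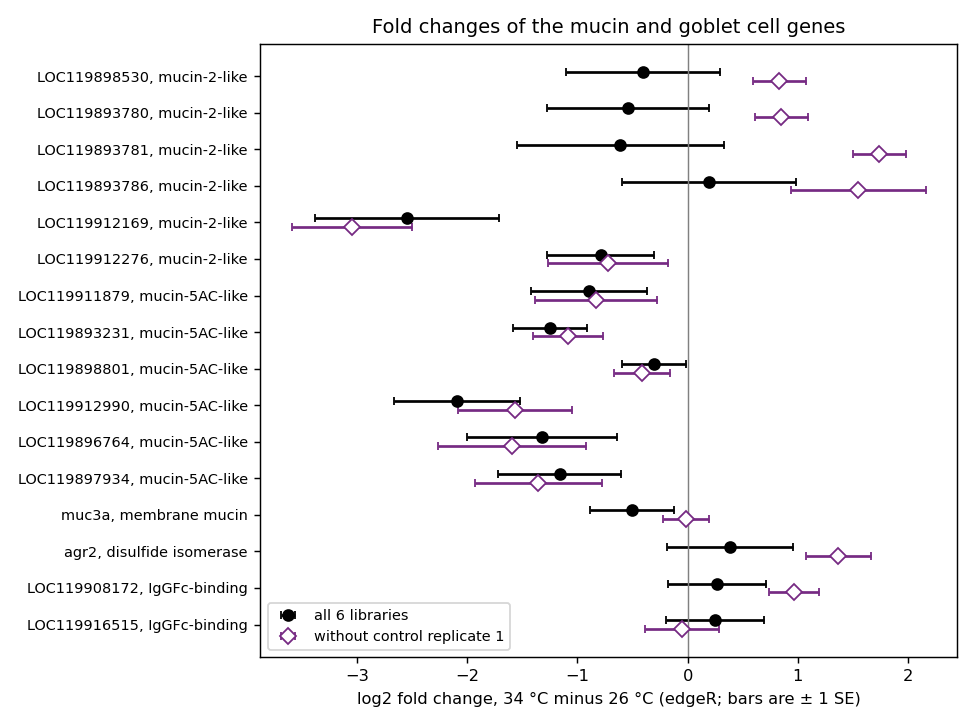
Log2 fold change (34 °C minus 26 °C, edgeR) of each of the 16 genes with ± 1 SE, in all 6 libraries (black circles) and without control replicate 1 (open diamonds). The mucin-2-like LOC119898530, LOC119893780 and LOC119893781 change sign, from -0.41, -0.54 and -0.61 to 0.83, 0.85 and 1.74, while the 6 mucin-5AC-like genes lie below 0 in both fits.

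The enzymes that decorate mucins held the only edgeR calls with all libraries among the related lists. Sugar chains on mucins begin when polypeptide N-acetylgalactosaminyltransferases attach a first sugar, C1GALT1 extends it to core 1, and core 2 beta-1,6-N-acetylglucosaminyltransferases (C2GnT) branch it. Of 36 tested O-glycosylation genes 3 rose (against 0.590% of all genes called higher), 0 fell and 33 did not pass. The 3 passed the count filter only through their heat libraries and may be copies that share reads. Their number beside that share therefore adds no support to the calls. The median log2 fold change of the list was 0.02, against -0.12 for all tested genes. The 3 genes that rose are all described as C2GnT 3-like, the enzyme whose mammalian counterpart branches O-glycans in mucus-secreting tissues. DESeq2 called 5 genes of the list higher and 1 lower, against 2.89% and 3.23% of all genes. Leaving out control replicate 1, edgeR called 10 higher and 2 lower, against 4.61% and 4.11% of all tested genes. The 3 C2GnT 3-like genes are among the 5 and among the 10.

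LOC119893796 (NW_024044570.1, 17924799 to 17927585, plus strand) had 1, 4 and 3 counts at 26 °C and 32, 156 and 84 at 34 °C. LOC119893795, 19566 bases before it (17903949 to 17905232), had 1, 1 and 0 counts against 10, 92 and 46. LOC119887224, on another scaffold (NW_024043442.1, 35008 to 36280), had 0, 1 and 0 counts against 11, 48 and 31. The edgeR adjusted p were 0.0264, 0.0341 and 0.0368. Every heat library lay above every control in each gene. With so few control counts, however, these genes passed the count filter only through their heat libraries. That separation therefore followed from the filter and adds no support to the calls. Over summed counts and library sizes the levels at 34 °C were 43.2-fold (95% exact interval 21.6 to 101), 94.0-fold (25.6 to 784) and 114-fold (20.0 to 4567) those at 26 °C. These intervals cover counting error only, not the spread between pools. The fold values come from the same counts that passed the filter, so they add no support to the calls either. The 3 genes may be near-identical copies that share reads. All 3 stayed higher with each library left out, but only without control replicate 1 did they keep an adjusted p under the threshold (edgeR adjusted p = 0.0128, 0.0249 and 0.0249). Without each other library their adjusted p ran from 0.0748 to 0.249. With limma on unfiltered log2(TPM + 1) the adjusted p were 0.0569, 0.119 and 0.0634. The sizes also rested on single libraries. LOC119893796 was 24.9-fold higher over control replicates 2 and 3 alone. The fitted log2 change of LOC119893795, 6.13 with all libraries, was 5.52 without heat replicate 2. That of LOC119887224 was 6.23 with all libraries, 5.58 without control replicate 1 and 7.995 without control replicate 2, which holds its only control count.

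Of the 5 C2GnT genes in the table, the most abundant was LOC119891357 (NW_024044459.1, 23967649 to 23972904), at a mean of 91.8 TPM at 26 °C and 279 TPM at 34 °C. Its control libraries had 56.3, 88.5 and 92.5 CPM and its heat libraries 242, 265 and 214 CPM, without overlap. The ratio of means was 3.04-fold (log2 change 1.60; SE 0.30; edgeR adjusted p = 0.0542, and 0.0135 without control replicate 1). Per length it was far above the C2GnT 3-like genes, whose heat means were 9.03, 5.50 and 3.42 TPM. The C2GnT 4-like LOC119914778, named after its values were seen, had 66.0, 28.2 and 19.2 CPM at 26 °C and 46.4, 41.5 and 46.2 CPM at 34 °C (edgeR adjusted p = 0.824). In CPM it followed the agr2 arrangement, while on TPM heat replicate 3 (44.5) lay above control replicate 1 (43.9).

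**Figure D5:**
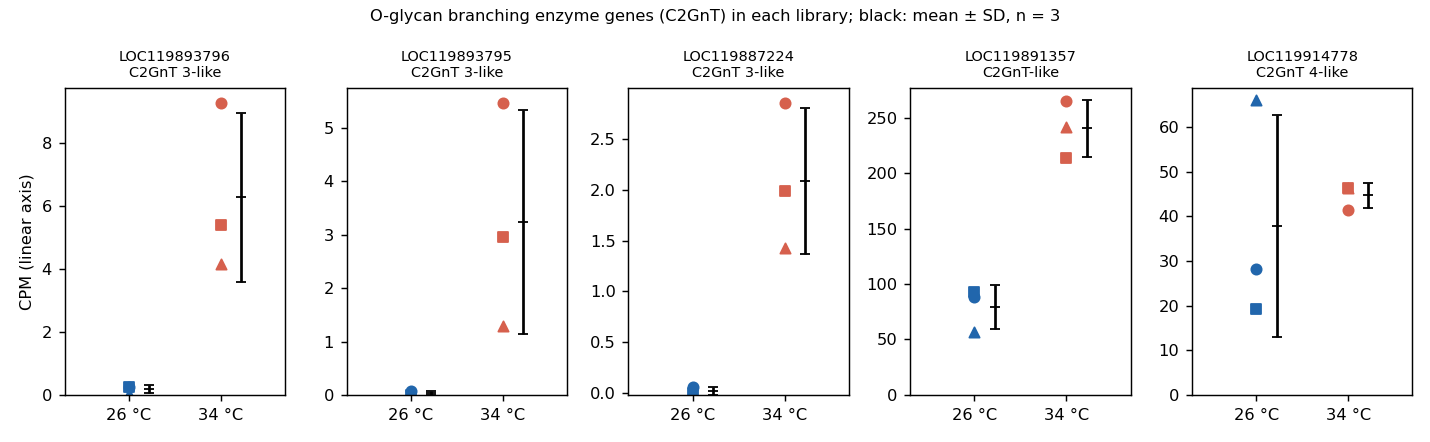
CPM (linear axes that differ between panels) of the 5 O-glycan branching enzyme genes in each library, controls at 26 °C in blue and heat at 34 °C in red, with mean ± SD (n = 3) in black. The C2GnT 3-like genes have 0 to 4 counts per control library and 10 to 156 per heat library, and LOC119891357 goes from 56.3 to 92.5 CPM in the controls to 214 to 265 CPM in the heat group.

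Genes of the earlier steps of O-glycosylation did not pass in edgeR with all libraries, though some were called in other fits. Of 14 tested polypeptide N-acetylgalactosaminyltransferase genes edgeR called 0, with 5 at an unadjusted p under 0.05 (16.6% of all tested genes), and DESeq2 called 2. Without control replicate 1 edgeR called 4 of the 14, against 8.71% of all tested genes. In that fit galnt7, galnt2 and galnt12, named after their values were seen, were higher (edgeR adjusted p = 0.0383, 0.0435 and 0.0482). With all libraries their adjusted p were 0.678, 0.366 and 0.267. The directions of the remaining calls among the 14 are not given here. The gene galnt6, the most abundant of these by CPM, was at 96.1 ± 43.8 CPM at 26 °C and 97.8 ± 15.0 CPM at 34 °C (SD, n = 3; edgeR adjusted p = 0.981). The core 1 gene c1galt1b had 126, 34.7 and 40.5 CPM in the control pools and 94.6, 120.1 and 84.6 CPM in the heat pools. For c1galt1c1, which encodes the chaperone of that enzyme, the values were 30.1, 4.90 and 6.59 CPM against 15.3, 13.3 and 13.8 CPM. In both, control replicate 1 was highest in CPM and the other controls lowest. On TPM c1galt1b in heat replicate 2 (64.4) lay above control replicate 1 (47.7). Both genes were called higher without control replicate 1 (edgeR adjusted p = 0.0164 and 0.0303). They were chosen after their values were seen.

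The secretory pathway genes that fold and move mucins were not called with all libraries. Of 26 tested genes edgeR called 0, and the median log2 fold change was -0.21. At an unadjusted p under 0.05 there were 4, 3 higher and 1 lower (16.6% of all tested genes in either direction). DESeq2 called 1, as lower. The disulfide isomerase gene p4hb was the most abundant by CPM, at 866 ± 642 CPM at 26 °C and 691 ± 87.1 CPM at 34 °C (SD, n = 3; edgeR adjusted p = 0.801). Next came pdia3, another disulfide isomerase gene, at 338 ± 279 and 374 ± 46.8 CPM (edgeR adjusted p = 0.922). Without control replicate 1, edgeR called 5 of these genes higher and 0 lower: pdia6, creb3l1, pdia4, pdia3 and xbp1 (adjusted p from 0.0110 to 0.0427). In that fit 4.61% of all tested genes were called higher and 4.11% lower. For creb3l1, which encodes a membrane-bound transcription factor of the endoplasmic reticulum, the libraries at 26 °C had 18.3, 8.06 and 8.15 CPM and those at 34 °C 23.4, 23.5 and 20.7 CPM, without overlap (edgeR adjusted p = 0.250 with all libraries).

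Genes of secretory cell fate, among them transcription factors and the receptor gene notch2, gave 0 calls among 14 tested in edgeR. At an unadjusted p under 0.05 there was 1 (16.6% of all tested genes), and DESeq2 called 1. That gene was elf3, an epithelial Ets factor, whose control pools had 163, 151 and 300.1 CPM and whose heat pools had 61.7, 63.4 and 87.6 CPM. Its groups did not overlap (log2 change -1.53; SE 0.35; edgeR adjusted p = 0.0900; DESeq2 adjusted p = 0.00314). The gene atoh1b, whose mammalian relative commits progenitors to the secretory lineage, had 12.7, 5.87 and 3.87 CPM at 26 °C against 11.8, 13.6 and 13.3 CPM at 34 °C (edgeR adjusted p = 0.424). The most abundant of the list by CPM was notch2, a receptor of the Notch pathway, at 198 ± 11.4 CPM at 26 °C and 233 ± 24.7 CPM at 34 °C (SD, n = 3). The nuclear receptor gene hnf4a was at 148 ± 61.7 and 218 ± 34.8 CPM. Per length notch2 was lower, at a mean of 43.6 TPM over the 6 libraries, against 149.6 TPM for hnf4a and 123.5 TPM for elf3. Without control replicate 1, edgeR called atoh1b and hnf4a higher (adjusted p = 0.0300 and 0.0439) and elf3 lower (adjusted p = 0.0290). That fit called 4.61% of all tested genes higher and 4.11% lower.

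Ion transporters and proteases that hydrate and detach mucus gave 0 calls of 17 in edgeR, with 2 at an unadjusted p under 0.05 (16.6% of all tested genes) and 1 called by DESeq2. The DESeq2 call was slc12a2, the sodium-potassium-chloride cotransporter that supplies chloride for secretion. The 26 °C pools had 46.6, 43.0 and 44.0 CPM and the 34 °C pools 130.4, 94.4 and 76.7 CPM (log2 change 1.17; SE 0.27; edgeR adjusted p = 0.0894; DESeq2 adjusted p = 0.00511). The chloride channel gene cftr was at 139 ± 40.9 CPM at 26 °C and 123 ± 17.6 CPM at 34 °C (SD, n = 3). The bicarbonate cotransporter gene slc4a4a was at 923 ± 71.5 and 645 ± 68.5 CPM, and the meprin gene mep1a.2, a protease, at 822 ± 567 and 821 ± 141 CPM.

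Granule exocytosis genes gave 0 calls of 20 in edgeR, and DESeq2 called 1, as lower. At an unadjusted p under 0.05 there were 3, 1 higher and 2 lower (16.6% of all tested genes in either direction). The most abundant by CPM, scinlb, encodes a scinderin-like actin-severing protein. Its control libraries had 929, 399 and 399 CPM and its heat libraries 235, 281 and 289.9 CPM (log2 change -1.10; SE 0.42; edgeR adjusted p = 0.241). The synaptotagmin-like gene sytl2b was at 242 ± 67.6 CPM at 26 °C and 157 ± 50.3 CPM at 34 °C (SD, n = 3). Mucosal lectin and antimicrobial genes gave 0 calls of 17 in edgeR, and DESeq2 called 1, as lower. At an unadjusted p under 0.05 there were 6 (4 higher and 2 lower, against 6.86% and 9.78% of all tested genes). Their most abundant members by CPM were LOC119882164, described as a deleted in malignant brain tumors 1 protein, at 39.6 ± 6.57 CPM at 26 °C and 75.0 ± 25.9 CPM at 34 °C, and the galectin gene lgals17 at 77.3 ± 64.4 and 28.8 ± 8.52 CPM.

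The genes whose levels followed the mean of LOC119898530 and LOC119893780 most closely were not mucus genes by name. Among 14115 genes outside the name rule with a mean of at least 5 CPM, the highest Pearson correlations of log2 CPM over the 6 libraries were those of LOC119888227 (a myeloid-associated differentiation marker homolog, 0.9998), klb (klotho beta, 0.998), rer1 (0.998), prdx2 (peroxiredoxin 2, 0.997) and ndufa2 (a respiratory chain subunit, 0.997). In each, control replicate 1 was highest and control replicates 2 and 3 were lowest, as for prdx2 at 519, 83.4 and 102 CPM at 26 °C and 129.5 to 196 CPM at 34 °C. A correlation above 0.95 was shared by 493 genes, and all of them share the 6 libraries with control replicate 1 among them.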

How the data were processed

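Per the file headers, the authors deposited 2 tables, of genes and of lncRNA transcripts, with whole-number counts and TPM for every library. HISAT2 2.1.0, StringTie 1.3.3 and DESeq are named in the submitters' processing notes, with no step assigned; the build was not given in the sources used here. Members and lists were chosen with earlier results of these data known. Genes and 3399 lncRNA transcripts entered 1 fit, after 2488 assembled genes that repeat the lncRNA counts were removed. The test was edgeR 4.0.16 in R 4.3.3 (quasi-likelihood, TMM scaling, no replicate term, adjustment over 20326 genes), keeping features that passed filterByExpr at a count of 10 and a total of 15. SE was taken from the F statistic. The fit was also run on simulated data with a dispersion common to all genes and no deviating library. That run does not show how the fit behaves with a library such as control replicate 1. Alternatives were DESeq2 1.42.0, limma 3.58.1 on the deposited TPM (log2 after adding 1 or 0.1, mean TPM of 0.5 or more, or unfiltered), scaling by RLE or by the upper quartile, all genes with a count, the gene table alone, a replicate block and each library left out. Single values per library were compared by exact permutation, and log2 CPM used a prior count of 2. Besides the members, named genes were, per list, up to 3 past the threshold and the 2 with the highest mean CPM, and the 5 most correlated genes. LOC119885400, LOC119914778, creb3l1, pdia4, pdia6, xbp1, elf3, atoh1b, slc12a2, cftr, parm1, c1galt1b, c1galt1c1, galnt2, galnt7 and galnt12 were chosen after their values were seen. Cell type names come from marker lists by symbol. No sequence is printed.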

Additional observations from a re-analysis of the deposited data

How the results depend on the processing

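The number of genes past the threshold, 200 with all libraries, was 1338 in DESeq2, 0 with the replicate block, 49 with limma on unfiltered log2(TPM + 1), and 0 to 1825 with each library left out. It was 1825 only without control replicate 1, and 10 or fewer without any other library. Members past it, 0 with all libraries, numbered 2 in DESeq2 and 0 to 4 with each library left out. O-glycosylation calls, 3 with all libraries, were 6 in DESeq2, 0 with the block, 0 on unfiltered TPM and 0 to 12 with each library left out. Each list with 0 calls had 1 in DESeq2, except the relatives by description, which had 0. With each library left out, secretory pathway genes had 0 to 5, fate factors 0 to 3, and the ion transport, exocytosis and lectin lists and the relatives 0 to 1 each. The members' median log2 fold change, -0.58, was -0.11 in limma on log2(TPM + 1), -0.13 on log2(TPM + 0.1) and -0.20 on unfiltered TPM.

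Of the 16 members, 10 kept their direction in every setting that gave a value. LOC119898530 reversed to 0.0908 with the block and to 0.0611, 0.0614 and 0.0611 in the TPM fits (in the order above), and ran from -0.79 to 0.83 with each library left out. LOC119893780 reversed to 0.0550 with the block and to 0.0042, 0.0045 and 0.0042 on TPM, and ran from -0.94 to 0.85. LOC119893781 reversed to 0.65 and to 0.50, 0.54 and 0.50, and ran from -1.08 to 1.74. With each library left out, LOC119908172 ran from -0.0248 to 0.97, LOC119893786 from -0.59 to 1.55, LOC119916515 from -0.0478 to 0.55, the summed mucin-2-like difference from -0.42 to 0.83, and the ratio of LOC119898530 to LOC119893780 from -0.0102 to 0.12 (log2). The cause of these changes was not tested.

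Replicate numbers did not pair the samples: deviations from the group means correlated at -0.0112, -0.0118 and 0.0396 between samples of the same number. With the replicate block the 3 C2GnT 3-like genes had edgeR adjusted p of 0.0960, 0.105 and 0.119. DESeq2 gave LOC119893781 no adjusted p, and LOC119912169 and LOC119912276 were under the TPM filter. The quotients to marker sums were chosen after seeing the data. Heat replicate 1, at 8.24 M counts, and members with under 100 counts in every library limit what could be detected.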
